A study of Mus musculus with 42 samples.

Results

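DNA methylation after low paternal exposure to DEHP was described from 3 columns labelled low, set against 3 columns labelled control, in a methylation table of 9 columns. All 141251 windows of 100 bases (tiles) of that table were members. DEHP is a phthalate used to soften plastics. C57BL/6J males of 8 weeks received it at 2.5 mg/kg/day for 67 days in the low group, and vehicle alone in the control group. They were then mated with females that had not been exposed. The labels list sperm of males aged 14 weeks, and embryonic and extra-embryonic tissue of E7.5 offspring of a C57BL/6 by DBA/2J cross labelled male and wild type. An exposure of 67 days that starts at 8 weeks ends after 14 weeks, and how these ages go together was not resolved. Reduced representation bisulfite sequencing (RRBS) is listed for 4 sperm, 3 embryo and 3 extra-embryo samples in each group, whereas the table has 3 columns a group named by treatment and number, with no mention of a tissue. The tissue was therefore not assigned, and nothing says whether the 3 columns of a group come from separate animals or litters, so p-values measure only the spread between these columns. The 3 columns of the high group (25 mg/kg/day) entered the fits only to share the estimate of that spread.

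In mammals most CpG dinucleotides (a cytosine followed by a guanine) carry a methyl group, except in the CpG-rich stretches where many genes start. The pattern is largely erased and rewritten after fertilisation and again in the germ line, while imprinted regions keep a parent-specific methyl mark through the first of these waves. RRBS cuts the genome at CCGG sites, sequences the short fragments after bisulfite conversion and so samples mainly CpG-rich DNA. A percentage for a tile is the share of reads at its CpGs that stayed methylated, averaged over all cells in the sample. A change per cell and a change in the mix of cells cannot be told apart.

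The kind of DNA that was measured is shown by promoter windows of 300 bases, from 250 before to 50 after a gene start, taken from RefSeq on GRCm38.p6 and written on the strand of the gene. They are the windows that hold a whole tile whose low and control columns did not overlap, among the tiles, regions and gene starts named below, with Phlda2 added as the gene start of smallest p. Capitals mark the tile.
Slc35e1: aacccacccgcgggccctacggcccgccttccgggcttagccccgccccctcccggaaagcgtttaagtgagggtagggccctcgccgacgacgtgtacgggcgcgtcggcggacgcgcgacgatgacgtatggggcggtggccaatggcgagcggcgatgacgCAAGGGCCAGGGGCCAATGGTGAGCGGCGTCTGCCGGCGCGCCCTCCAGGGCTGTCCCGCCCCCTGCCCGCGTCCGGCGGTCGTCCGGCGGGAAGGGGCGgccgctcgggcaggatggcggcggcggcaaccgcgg
Bcdin3d: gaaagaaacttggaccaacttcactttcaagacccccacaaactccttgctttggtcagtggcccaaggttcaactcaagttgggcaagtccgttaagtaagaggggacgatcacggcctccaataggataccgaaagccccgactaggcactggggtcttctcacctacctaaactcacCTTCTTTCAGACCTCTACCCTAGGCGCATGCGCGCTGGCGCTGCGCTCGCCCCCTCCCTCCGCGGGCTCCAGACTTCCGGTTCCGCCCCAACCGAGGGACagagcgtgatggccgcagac
C130026L21Rik: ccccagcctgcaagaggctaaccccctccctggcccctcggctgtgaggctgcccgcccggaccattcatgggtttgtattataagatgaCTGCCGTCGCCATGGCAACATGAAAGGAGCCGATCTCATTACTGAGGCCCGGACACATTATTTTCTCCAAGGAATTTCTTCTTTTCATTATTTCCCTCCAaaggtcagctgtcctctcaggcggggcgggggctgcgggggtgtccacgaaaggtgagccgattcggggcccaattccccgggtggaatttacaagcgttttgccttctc
Nfatc2ip: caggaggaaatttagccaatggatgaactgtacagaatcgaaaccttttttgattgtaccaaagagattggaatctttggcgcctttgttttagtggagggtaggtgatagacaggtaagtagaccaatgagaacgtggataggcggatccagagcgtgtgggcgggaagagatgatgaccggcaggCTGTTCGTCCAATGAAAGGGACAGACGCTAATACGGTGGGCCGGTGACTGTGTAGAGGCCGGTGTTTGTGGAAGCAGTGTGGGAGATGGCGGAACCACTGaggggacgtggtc
Man2c1: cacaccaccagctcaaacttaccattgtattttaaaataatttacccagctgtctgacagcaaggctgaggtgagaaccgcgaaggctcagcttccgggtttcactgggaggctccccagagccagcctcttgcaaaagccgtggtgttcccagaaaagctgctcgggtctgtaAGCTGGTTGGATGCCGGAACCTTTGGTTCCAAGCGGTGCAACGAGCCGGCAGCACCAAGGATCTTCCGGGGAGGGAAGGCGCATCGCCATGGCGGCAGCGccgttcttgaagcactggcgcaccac
Phlda2: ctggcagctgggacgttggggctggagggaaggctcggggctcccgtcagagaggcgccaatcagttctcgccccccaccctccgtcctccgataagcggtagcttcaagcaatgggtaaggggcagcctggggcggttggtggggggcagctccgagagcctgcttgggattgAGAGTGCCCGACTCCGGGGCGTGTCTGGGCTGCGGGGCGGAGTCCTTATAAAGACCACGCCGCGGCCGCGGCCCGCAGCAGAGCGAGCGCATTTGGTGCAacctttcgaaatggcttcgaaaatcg
The window of Slc35e1 lies at chr8:72492565-72492864 on the minus strand, that of Bcdin3d at chr15:99474681-99474980 (minus), that of C130026L21Rik at chr5:111581311-111581610 (plus), that of Nfatc2ip at chr7:126396688-126396987 (minus), that of Man2c1 at chr9:57130527-57130826 (plus) and that of Phlda2 at chr7:143502475-143502774 (minus). Slc35e1 had the most CpGs of the 6 windows, 48 with 14 of them in the tile, and Nfatc2ip had the fewest, 14 with 6 in the tile. The motif CG, which reads the same on both strands, is present in 94.6% of all 32851 promoter windows (median 7 a window), and CCGG is present in 52.8%. The tile in the Slc35e1 window was the only one of the 6 that differed by more than 10 percentage points.

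The 9 columns had nearly the same overall methylation, and the low and control columns overlapped. Mean methylation over all tiles was 35.9%, 35.7% and 36.3% in the low columns, and 35.2%, 35.7% and 36.1% in the control columns. The means were 36% ± 0.327 in low and 35.7% ± 0.411 in control (SD, n = 3 each), a difference of 0.322 points (exact permutation test, two-sided, p = 0.40, where 3 against 3 cannot go below 0.10). Without the first control column, the lowest of the 6, the difference was 0.114 points. The medians of the columns lay the other way, on average 0.374 points lower in low. They were 20.7%, 20.2% and 20.7% in the low columns, and 21.7%, 20.4% and 20.6% in the control columns. The first control column, lowest by mean, was thus the highest by median. Pairs of columns correlated at between 0.979 and 0.982 within low, between 0.980 and 0.984 within control and between 0.977 and 0.984 across the groups. Read coverage was not used here because the table holds percentages alone, so the depth behind each value is unknown. The first control column also had the most tiles at 0%, 7.41%, against 5.62% to 5.72% in the low columns and 5.11% and 5.88% in the other control columns.

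Methylation differed far more between positions relative to genes than between the groups. Gene starts (1000 bases before to 500 after, 46945 tiles) averaged 9.03%, 9.21% and 9.44% in the low columns, and 9.29%, 9.39% and 9.30% in the control columns. In the rest of gene spans, with 2 kb on either side (73741 tiles), the low columns had 46.3%, 46.0% and 46.8%, and the control columns had 45.5%, 46.0% and 46.5%. Tiles outside genes (20565 tiles) had 59.98%, 59.2% and 60.2% in low, and 57.7%, 58.7% and 59.7% in control. The difference was -0.10 points at gene starts, 0.38 points in the rest of gene spans and 1.09 points outside genes, and in none of the 3 did the columns separate (exact permutation p between 0.20 and 0.50, adjusted p = 0.50). These sizes depended on single columns. Leaving out 1 column gave between -0.209 points (without the third low column) and -0.00197 points (without the first low column) at gene starts. In the rest of gene spans it gave between 0.138 points (without the first control column) and 0.632 points (without the third). Outside genes it gave between 0.566 points (without the first control column) and 1.60 points (without the third). Centring each column on its own mean lowers every difference by 0.322 points. This left -0.423 points at gene starts, 0.0566 points in the rest of gene spans and 0.763 points outside genes. The same constant applies to the regions, gene starts, gene spans and lists below, so centring moves all of them towards lower by construction.

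**Figure D1:**
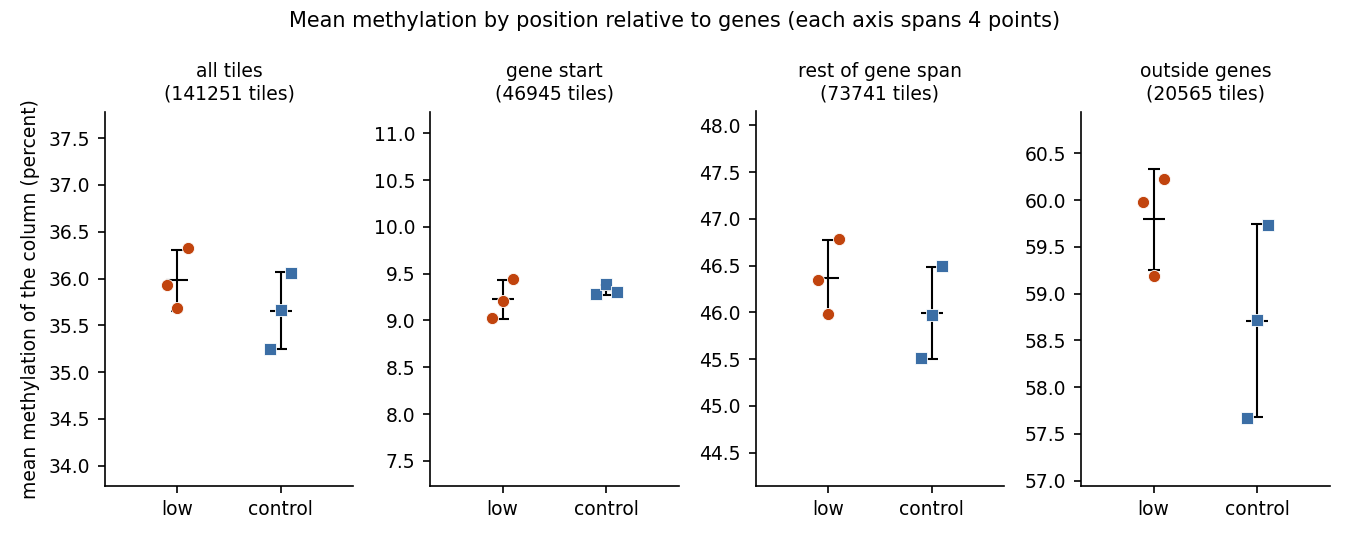
Mean methylation (percent) of each of the 3 low columns (circles, left) and 3 control columns (squares, right) over all tiles and by position relative to genes, with the group mean and SD in black; every vertical axis spans 4 points. The groups overlap in all 4 panels, and the lowest square outside genes, at 57.7%, is the first control column.

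By methylation level, the low columns were on average lower where methylation was low and higher where it was high, with overlap in each class. Tiles were put into 5 classes by their mean over all 9 columns. The class under 5% (38710 tiles) averaged 1.59% ± 0.16 in low and 1.64% ± 0.153 in control, and the class from 5% to 20% (31463 tiles) averaged 10.5% ± 0.334 in low and 10.8% ± 0.140 in control (SD, n = 3 each). Intermediate tiles, from 20% to 60% (23720 tiles), averaged 40.7% ± 0.396 in low and 40.5% ± 0.502 in control. The widest gap was in the class from 60% to 90% (41885 tiles), where the low columns had 77.1%, 76.1% and 77.4%, and the control columns had 74.5%, 75.7% and 76.8%. That gap was 1.17 points, with 0.591 points without the first control column and 1.73 points without the third. The class of 90% or more (5473 tiles) averaged 92.3% ± 0.273 in low and 91.9% ± 0.470 in control. Exact permutation p-values for the 5 classes lay between 0.20 and 0.80, with the lowest adjusted p = 0.50. After centring, the intermediate class turned to -0.149 points and the class from 60% to 90% kept 0.848 points. Leaving out 1 column turned the class under 5% to 0.0436 points (without the first low column) or 0.0389 points (without the second control column), and the class from 20% to 60% to -0.0298 points (without the third low column). The class from 5% to 20% ran from -0.441 to -0.108 points, without the third and the first low column, and the class of 90% or more from 0.263 to 0.721 points, without the second and the third control column. Taking the classes from the high columns alone, which are in neither group, gave 1.15 points for the class from 60% to 90%.

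**Figure D2:**
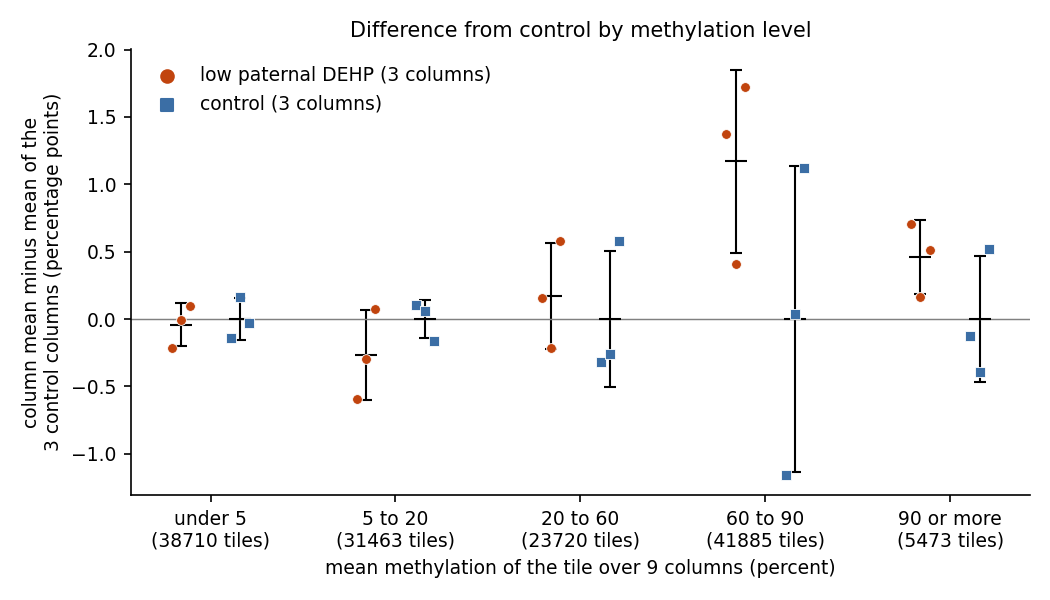
Mean of each low (circles, left) and control (squares, right) column minus the mean of the 3 control columns, in percentage points, for 5 classes of tiles by methylation level; black marks give group mean and SD (n = 3 each). The low mean is 1.17 points above control in the class from 60% to 90%, and the third control column lies inside the range of the low columns there.

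Around gene starts both groups traced the same trough. In the 500 bases after the start (27421 tiles) methylation averaged 8.41% ± 0.195 in low and 8.51% ± 0.0523 in control, and in the 500 bases before it 8.61% ± 0.227 in low and 8.72% ± 0.06998 in control. Between 4500 and 5000 bases upstream, it reached 46.8% ± 0.357 in low and 46.2% ± 0.674 in control, and between 4500 and 5000 bases downstream, 55.1% ± 0.518 in low and 54.8% ± 0.385 in control. The groups overlapped in each of the 20 bins of 500 bases. Methylation was lower where the promoter window held more CpGs, in both groups. The 359 gene starts with 5 or fewer CpGs in the window averaged 36.1% ± 0.522 in low and 35.8% ± 0.224 in control, and the 1435 with more than 35 averaged 5.31% ± 0.130 in low and 5.40% ± 0.0773 in control. The difference stayed between -0.12 and 0.33 points in the 5 groups by CpG content, with overlap in each.

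On 20 of 21 chromosomes the low mean was higher than the control mean, and on none did the columns separate. Across the 19 autosomes, the difference ran from 0.206 points on chromosome 11 to 0.458 points on chromosomes 3 and 18, so no autosome stood apart from the rest (exact permutation p between 0.20 and 0.60, lowest adjusted p over 21 chromosomes = 0.583). Chromosomes of one column share its library, so 19 differences in one direction are not 19 separate measurements. Chromosome X (2132 tiles) was the exception, with 32.3%, 33% and 34.9% in the low columns, and 32%, 35% and 33.7% in the control columns. Its columns were spread more widely than those of the autosomes, with an SD of 1.31 against 0.316 points in low and 1.5 against 0.404 points in control. The spread was widest in X tiles of low methylation and smaller in the others. X tiles under 20% (1070 tiles) averaged 6.32%, 8.52% and 10.8% in the low columns, and 7.51%, 12.2% and 9.60% in the control columns. X tiles from 20% to 60% (476 tiles) averaged 37.8% ± 1.17 in low and 38% ± 1.42 in control (SD, n = 3 each). At gene starts, the X columns (772 tiles) had 11.2%, 13.1% and 15.2% in low, and 12.2%, 16.6% and 13.9% in control, whereas the autosomes stayed between 8.98% and 9.33% in low and between 9.21% and 9.26% in control. X tiles of 60% or more (586 tiles) had 76.1%, 74.3% and 75.3% in low, and 73.2%, 73.2% and 74.2% in control. This was the one set of X tiles where the groups did not overlap, by 1.71 points (exact permutation p = 0.10, the smallest possible, adjusted p = 0.60 over 6 sets). Female cells methylate gene starts on their inactive X, and the share of female cells in each column was not tested. The 71 tiles on chromosome Y averaged between 71.7% and 75.5% in the low columns and between 70.6% and 74.5% in the control columns.

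**Figure D3:**
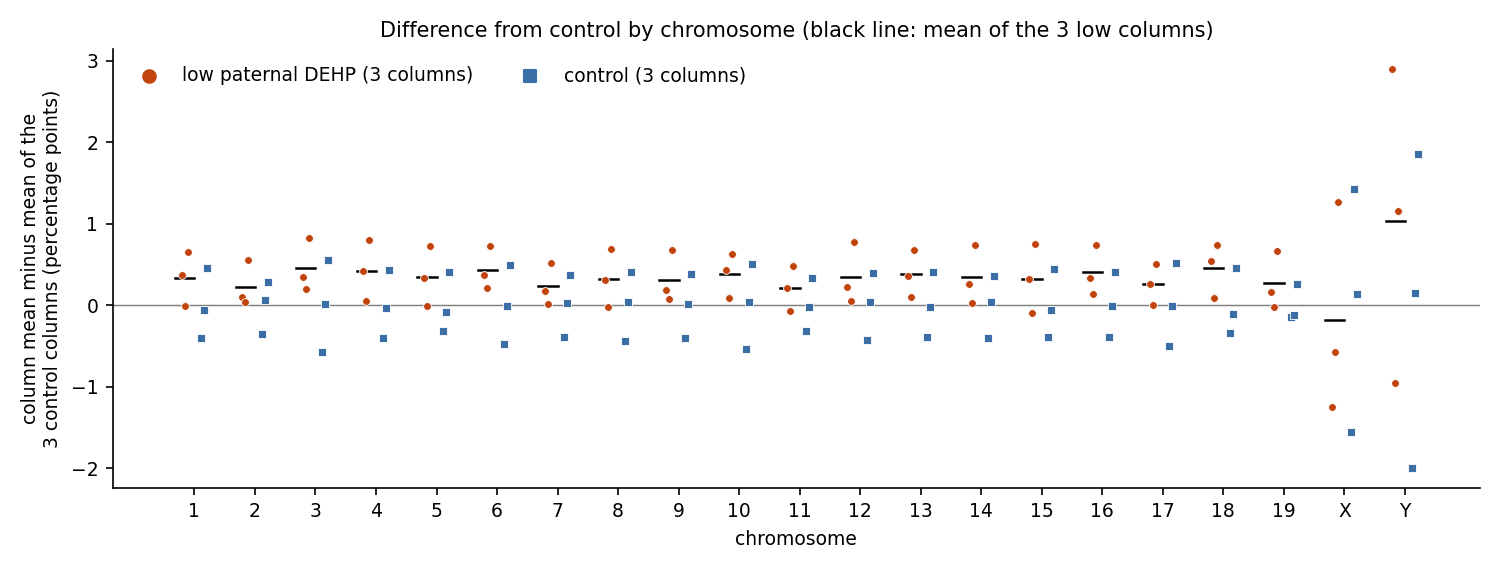
Mean of each low (circles, left) and control (squares, right) column minus the mean of the 3 control columns, in percentage points, by chromosome; black lines mark the mean of the low columns. The lines lie between 0.206 and 0.458 points on the autosomes, and the points of X and Y are spread far more widely.

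Tile by tile, no difference between low and control passed an adjusted p of 0.05 in limma, 0% of 141251 tiles. An unadjusted p under 0.05 was reached by 7748 tiles (5.49%), 4602 higher and 3146 lower in low; with centred columns the split was 3913 higher and 3916 lower. On the logit scale, and with a variance that follows the level, limma called 1 tile. All 3 low columns lay above all 3 control columns in 7432 tiles (5.26%), and below them in 6028 tiles (4.27%). The 16 tiles with the smallest p, 8 in each direction, had adjusted p-values between 0.183 and 0.460, and their identity is described here as a ranking.

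Among the lower tiles, the 3 leading ones lay at gene starts and had less than 5% methylation on average in the low columns. Naa16 encodes an auxiliary subunit of an N-terminal acetyltransferase. Its tile at chr14:79390401-79390500, 217 bases after the gene start, had 0%, 0% and 0.725% in the low columns, and 10.8%, 9.09% and 10.7% in the control columns. The difference was -9.94 ± 0.680 points (SE) with a limma adjusted p = 0.183. This is the tile called on the logit scale (adjusted p = 0.0342) and with the variance trend (adjusted p = 0.0319), and over all alternatives its adjusted p ran from 0.0319 to 0.609. The high columns had 9.84%, 9.94% and 9.55%. Cadps2 encodes a protein of dense-core vesicle release. Near its start, chr6:23839901-23840000 had 4.11%, 5.04% and 4.21% in low, and 16.5%, 15.8% and 16.5% in control. The high columns were at 3.27%, 5.65% and 2.27% in that tile. The Slc35e1 tile printed above (chr8:72492601-72492700) had 5%, 3.66% and 1.82% in low, and 18.2%, 15.5% and 15.1% in control; Slc35e1 belongs to a family of nucleotide sugar transporters, and Med26, a Mediator subunit, starts close by. In each of these 3 tiles the low columns were closer together than the gap to control, which their choice by small p made likely.

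The other 5 lower tiles had intermediate or high methylation and lay far from gene starts. Spred2 encodes an inhibitor of the Ras to ERK cascade, and its tile at chr11:19965101-19965200 had 51.9%, 55.9% and 58.8% in low, and 71.2%, 75% and 73.7% in control. Slc38a6 encodes a member of an amino acid transporter family, and its tile at chr12:73339501-73339600 had 79.5%, 75% and 75% in low, and 92.7%, 91.7% and 88.7% in control. The remaining 3 were outside genes, at chr9:120709001-120709100, chr4:142853801-142853900 and chr4:16309201-16309300, with differences of -11.5, -11.1 and -9.81 points.

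The 7 leading higher tiles described here were at 36.5% or more in each control column, and none was an unmethylated gene start. A tile at chr7:11363401-11363500, 34415 bases from Zscan4f (a gene of the Zscan4 cluster, known for its burst of activity in early embryos), had 69.4%, 71.5% and 73.1% in low, and 56.5%, 58.3% and 58.4% in control. Plpp1 encodes a lipid phosphate phosphatase; its tile at chr13:112840901-112841000 had 86.8%, 85.6% and 85.0% in low, and 67.5%, 69.5% and 72.4% in control. Car11 is a carbonic anhydrase-related gene next to the circadian regulator gene Dbp. Its tile at chr7:45703601-45703700 had 51.5%, 50.6% and 47.8% in low, and 36.5%, 36.6% and 36.8% in control. In Hcn2, the gene of a pacemaker channel, chr10:79724601-79724700 had 70.4%, 69.0% and 72.2% in low, and 59.5%, 59.8% and 60.7% in control. The last 3 lay by the predicted genes Gm20110, Gm40109 and Gm34837 and were 11.8, 16 and 13.2 points higher. For these 7 tiles limma p lay between 3.56e-06 and 2.43e-05, with adjusted p between 0.183 and 0.275.

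**Figure D4:**
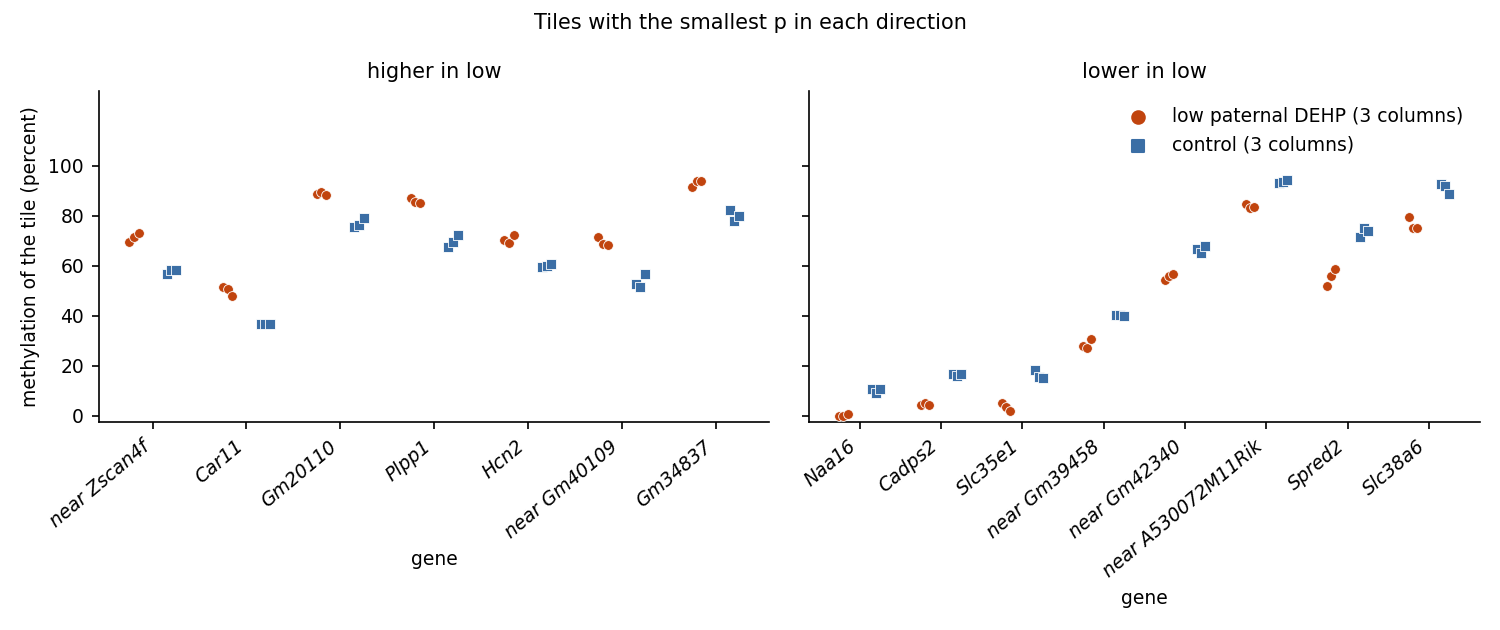
Methylation (percent) in each low column (circles, left) and control column (squares, right) of the 7 higher and 8 lower tiles described, chosen by smallest limma p and named by the gene they lie in or near. No tile has overlapping groups, which the choice by p makes likely, and the first 3 lower tiles reach 0.725%, 5.04% and 5% at most in low.

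Differences of 10 points or more without overlap were found in 1397 tiles that were higher in low (0.989%) and 690 that were lower (0.488%). They were mostly single tiles. Only 44 of the higher and 14 of the lower ones had another such tile in the same direction within 300 bases, and no run held more than 2. Gene starts held 90 of the higher and 86 of the lower tiles, the rest of gene spans held 799 and 424, and tiles outside genes held 508 and 180. Of all tiles, 33.2% were at gene starts, 52.2% in the rest of gene spans and 14.6% outside genes. By level, 893 of the higher and 258 of the lower tiles were in the class from 60% to 90%, and 446 and 376 were in the class from 20% to 60%. These classes hold 29.7% and 16.8% of all tiles, and no tile under 5% differed by 10 points. In number, the excess of higher over lower tiles was mostly in the class from 60% to 90% away from gene starts. These counts were not redone with centred columns, where tiles at an unadjusted limma p under 0.05 were split into 3913 higher and 3916 lower. The median SD between the 3 columns of a group in the class from 60% to 90% was 4.63 points in low and 4.55 points in control, against 0.533 and 0.543 points in the class under 5%. Of 22954 genes with tiles in their span or flank, 943 had at least 1 large higher tile, 623 had at least 1 large lower tile and 62 had both. Camta1, the gene of a calmodulin-binding transcription activator, had the most higher ones, 5 of its 127 tiles, and Wwox, a large gene at a chromosomal fragile site, had the most lower ones, 4 of its 79 tiles with 2 higher; both were picked after their values were seen.

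Averaging neighbouring tiles gave 14510 regions of 3 or more tiles, and none was called by limma (0%). At an unadjusted p under 0.05 there were 729 regions (5.02%), 326 higher and 403 lower, and 210 higher and 639 lower with centred columns. The low columns were all above control in 570 regions (3.93%) and all below in 778 (5.36%). The lower region of smallest p, chr1:74068601-74069000 in Tns1 (a focal adhesion protein gene), had 22.9%, 22.3% and 22.4% in low, and 30.9%, 28.8% and 32.9% in control, with all 3 tiles lower. At the start of Ccdc39, a gene needed to assemble motile cilia, chr3:33843801-33844100 had 16.8%, 17.9% and 18.9% in low, and 26.2%, 22.7% and 25.8% in control, again with all 3 tiles lower. The start of C130026L21Rik and a region outside genes at chr12:105884801-105885100 differed by -6.87 and -5.89 points.

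The higher region of smallest p was chr16:59239601-59239900, 22990 bases from the olfactory receptor gene Olfr199. It had 83.5%, 78.2% and 82.2% in low, and 69.4%, 65.2% and 66.6% in control, and in each of its 3 tiles the groups did not overlap. A region at chr7:143069801-143070300 had 24.3%, 21.9% and 25.0% in low, and 13%, 15.1% and 13.9% in control, with all 3 tiles higher. It lies in Tssc4, between the tetraspanin gene Cd81 and the taste cation channel gene Trpm5, in the distal imprinted cluster of chromosome 7. In Abcc3, which encodes an exporter of organic anions, chr11:94359501-94359800 had 75.8%, 69.4% and 70.8% in low, and 59.6%, 63.3% and 61.6% in control. Mtcl1, the gene of a microtubule crosslinking protein, and an intergenic stretch at chr2:26763501-26763900 were higher by 4.90 and 5.47 points. The 9 regions described had limma p-values from 5.91e-05 to 0.000403 and adjusted p-values of 0.501 to 0.585.

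Of 10799 gene starts with 2 or more tiles, none was called by limma (0%), and 546 had an unadjusted p under 0.05 (5.06%). These were 216 higher and 330 lower in low, or 109 higher and 555 lower with centred columns. Centring takes the same 0.322 points from every start, so the stronger tilt to lower follows from that shift. The low columns were all above control at 415 starts (3.84%) and all below at 630 (5.83%). Phlda2, an imprinted gene known to be expressed from the maternal allele and to limit placental growth, had the smallest p. Its start averaged 4.94%, 4.53% and 4.11% in the low columns, and 7.59%, 8.36% and 9.12% in the control columns. The difference was -3.83 ± 0.475 points (SE) with a limma adjusted p = 0.586. At 3 of its 4 tiles the low mean was below control, and only at chr7:143502001-143502100 did the groups not overlap, with 10.6%, 7.48% and 3.66% in low, and 16.8%, 11.4% and 14.4% in control. The Phlda2 tile printed above, at the start itself, had 1.97%, 4.85% and 5.25% in low, and 6.56%, 3.33% and 1.92% in control, and so overlapped. Over the whole span of Phlda2 the groups also overlapped, at 14.6% ± 1.32 in low and 15.4% ± 0.826 in control (SD, n = 3 each).

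Lower starts included the potassium channel gene Kcnh4, with 11%, 9.82% and 9.94% in low, and 13.8%, 12.5% and 14.1% in control. Erbb4, a receptor for neuregulins, had 7.32%, 7.96% and 9.05% in low, and 12.5%, 13% and 11.05% in control. Only 1 of its 5 tiles had groups that did not overlap. At its tile of widest difference, chr1:69107601-69107700, the control columns had 11.8%, 40.4% and 17.3%, against 17.2%, 14.0% and 14.3% in low. Bcdin3d, an RNA methyltransferase gene, had 7.32%, 8.10% and 6.61% in low, and 10.1%, 10.2% and 10.04% in control. Its printed tile was at 0% in each low column, and at 1.19%, 8.82% and 7.33% in the control columns. Susd4, a regulator of complement, differed by -3.03 points, and Ccdc39 is given above. All these starts were below 20% in each low column.

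At the higher starts of Prim1, Hdgf, Nfatc2ip and Man2c1os a single tile carried most of the difference. Prim1 encodes the catalytic subunit of DNA primase, and its start had 17.3%, 20.8% and 19% in low, and 11.9%, 11.2% and 13.4% in control. One of its 3 tiles, chr10:128014801-128014900, had 22.6%, 33.3% and 30% in low, and 6.67%, 8.33% and 11.1% in control. Hdgf, a growth factor gene, averaged 2.58%, 3.77% and 3.78% in low, and 0.757%, 1.93% and 0.730% in control. The tile of Hdgf at chr3:87906401-87906500 had 13.8%, 21.2% and 21% in low, and 3.57%, 8.72% and 1.96% in control, while its other 5 tiles overlapped. Tfrc, the transferrin receptor gene, differed in both of its tiles and had 8.74%, 7.20% and 7.54% in low, and 5.47%, 5.71% and 5.33% in control. Klhl23 had 12.8%, 12.7% and 13.2% in low, and 10.3%, 9.40% and 11.1% in control, although 4 of its 7 tiles were lower in low. Nfatc2ip, whose product binds the transcription factor NFATc2, and Man2c1os, an RNA antisense to the mannosidase gene Man2c1, were higher by 1.55 and 1.56 points. The 12 named starts had adjusted limma p-values between 0.586 and 0.893.

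**Figure D5:**
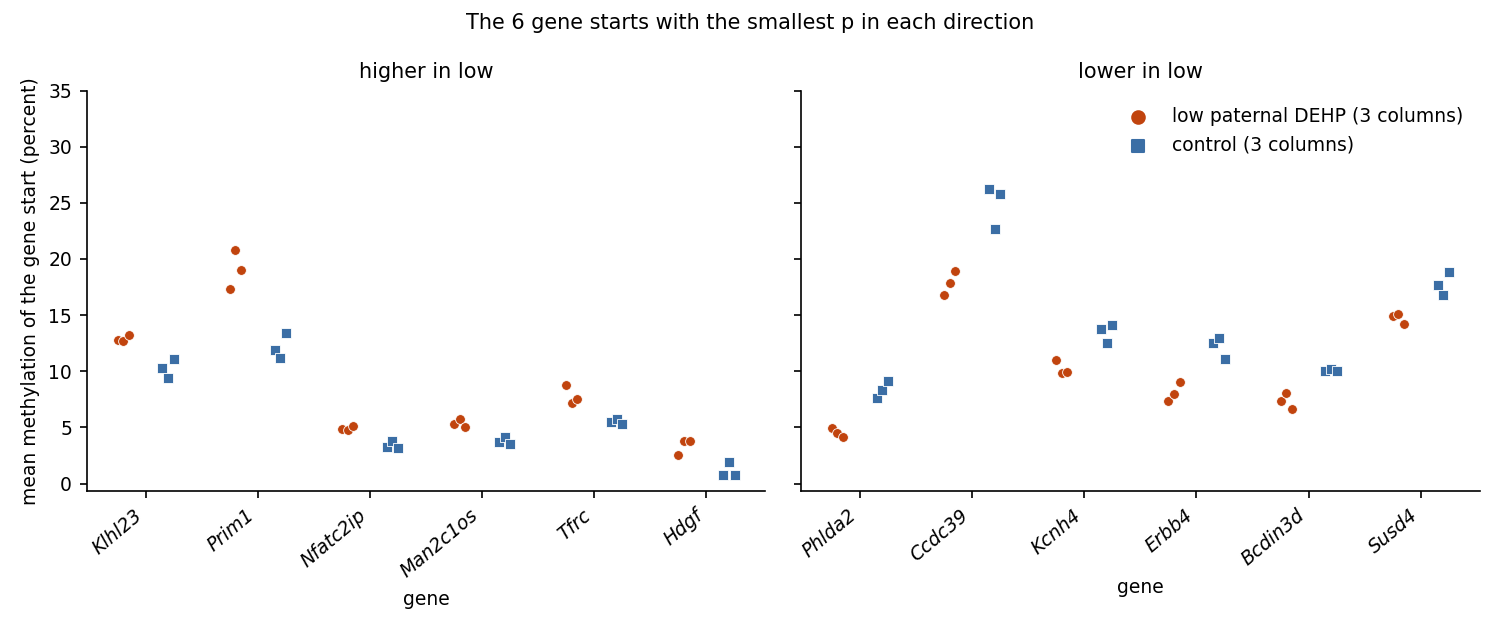
Mean methylation (percent) of each low column (circles, left) and control column (squares, right) at the 6 gene starts with the smallest limma p in each direction. Prim1 reaches 20.8% in low against at most 13.4% in control, and Phlda2 lies at 4.94% or less in low against 7.59% or more in control.

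Over whole gene spans with flanks, 16785 genes were tested and limma called none (0%). An unadjusted p under 0.05 was reached by 991 genes (5.9%), 574 higher and 417 lower, and by 376 higher and 664 lower with centred columns. The low columns were all above control in 896 genes (5.34%) and all below in 807 (4.81%). Rundc3a, a gene active in neurons, had 43.5%, 45.7% and 43.9% in low, and 39.9%, 39.3% and 38.8% in control. Of its 9 tiles, only chr11:102402001-102402100 had groups that did not overlap, with 78.2%, 79.4% and 76.1% in low, and 53.5%, 60.9% and 59.0% in control. The sodium leak channel gene Nalcn had 43.5%, 42.8% and 43.0% in low, and 38.5%, 37.2% and 38.4% in control, with all 4 of its tiles higher. Adora2b, an adenosine receptor gene, had 27.5%, 27.3% and 27% in low, and 24.4%, 24.1% and 24.7% in control. Ccdc173 was 3.79 points higher, and only 1 of its 4 tiles, with a difference of 15.4 points, had groups that did not overlap. Trpm5 and Prim1 were measured on the same tiles as the region and start described above.

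Lower spans were led by Zfp775, a zinc finger gene, with 25.7%, 25.2% and 25.6% in low, and 29.3%, 31.3% and 29.3% in control. Rin1, a Ras effector gene, had 43.0%, 43.3% and 45.3% in low, and 49.5%, 48.7% and 48.9% in control, with 8 of its 10 tiles lower. Slc25a25, a mitochondrial carrier gene for adenine nucleotides, had 39.99%, 39% and 39.9% in low, and 43.3%, 42.3% and 42.6% in control. Gdap1l1 had 8.07%, 9.49% and 8.87% in low, and 16.1%, 14.1% and 12.3% in control, and Nphs1os, an RNA antisense to the nephrin gene, differed by -5.68 points. The 12 named spans had adjusted limma p-values from 0.339 to 0.638.

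Genes of body patterning had mostly small negative differences, at low methylation. Of 39 Hox genes, the homeobox clusters that lay out the body axis, 28 were lower and 11 higher, with a median difference of -0.82 points, and of 38 neural and ectoderm genes 32 were lower and 6 higher, with a median of -0.67 points. Genes of the streak, mesoderm and endoderm were lower in 22 of 30, with a median of -0.48 points. None of these genes was called, and over all 16785 gene spans the median was 0.0320 points, with 8659 higher and 8126 lower. These lists average 17.1% to 20.4% in low, and the 31463 tiles of the class from 5% to 20% had a median of -0.22 points; the part of the level in the lists' difference was not tested. After centring, 33, 34 and 25 genes of these lists were lower, with medians of -1.14, -0.993 and -0.805 points, against 10442 lower and a median of -0.290 points over all gene spans. Summed over each list, the low and control columns overlapped in all 13 lists. Neighbouring genes of a list can share tiles, so counts of genes are not counts of separate measurements. By tile, the median difference was -0.443 points in the Hox list, -0.278 points in the neural list and -0.180 points in the streak list. Over all tiles it was 0.0656 points. Otx1, a forebrain homeobox gene, had 14.0%, 14.3% and 15.7% in low, and 17.3%, 16.4% and 17.1% in control (31 tiles). Zic1, a neural zinc finger gene, had 9.06%, 9.79% and 9.23% in low, and 13.2%, 10.95% and 10.4% in control (11 tiles), and Hoxc4 had 16.5%, 17.5% and 19% in low, and 22.6%, 20.6% and 19.3% in control. Hoxb13 overlapped, at 18.5% ± 1.79 in low and 21.3% ± 1.63 in control.

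Hand1 and Gata6, which stand in both the streak list and the list of trophoblast and visceral endoderm, differed in opposite directions. Hand1, needed for heart and trophoblast giant cells, had 15.6%, 16.7% and 14.0% in low, and 18.1%, 18.4% and 17.5% in control. Gata6, a regulator of endoderm, had 13.9%, 11.9% and 11.6% in low, and 10.1%, 10.5% and 10.7% in control. In the trophoblast and visceral endoderm list, 13 of 22 genes were lower, with a median of -0.67 points, or 14 with a median of -0.99 points after centring. Signalling genes of the Wnt, FGF, BMP, Nodal and Hedgehog pathways were lower in 29 of 50 with a median of -0.089 points, but in 38 of 50 with a median of -0.411 points after centring. Spry4, an inhibitor of FGF signalling, had 34.3%, 34.7% and 33.3% in low, and 30.4%, 32.4% and 32.6% in control, and Wnt10a overlapped, at 13.5% ± 1.88 in low and 16.3% ± 1.2 in control.

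Imprinted genes ranged widely in methylation in both groups. Copg2 was lowest, at 2.92% ± 0.925 in low and 3.27% ± 1.14 in control, and Peg10 highest, at 71.6% ± 1.55 in low and 71.8% ± 4.01 in control (SD, n = 3 each). The 284 tiles of the list averaged 38%, 38.8% and 38.8% in low, and 38.6%, 38.5% and 38.8% in control, and 19 of 32 genes were lower with a median of -0.45 points, or 21 with a median of -0.77 points after centring. Peg13, a paternally expressed RNA, had 49.8%, 56.4% and 51.3% in low, and 44.7%, 47.9% and 47.3% in control. Plagl1, which encodes a growth-restraining zinc finger protein, had 41.8%, 42.1% and 41% in low, and 55.5%, 41.8% and 49.7% in control, and overlapped because of the second control column. Kcnq1ot1, the RNA whose promoter is the control region of the distal chromosome 7 cluster, had 32.1%, 40.4% and 38.4% in low, and 44.8%, 31.6% and 59.3% in control, so the control columns were themselves far apart. Germline genes, which are methylated in somatic cells, averaged 54.7% ± 0.425 in low and 54.1% ± 1.96 in control over 81 tiles. Asz1 was at 76.5% ± 2.33 in low and 74.4% ± 2.61 in control, and Smc1b at 35.3% ± 3.90 in low and 32% ± 4.06 in control (SD, n = 3 each). No tissue was inferred from these levels.

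Genes for hormones and metabolism, chosen because phthalates act on steroid and peroxisome proliferator pathways, gave no call. Nr5a1, the master regulator of steroidogenic cells, had 35.7%, 33.8% and 32.9% in low, and 38.6%, 38.4% and 39.5% in control, with a limma adjusted p = 0.667. Fshr, the receptor for follicle-stimulating hormone, had 89.8% ± 1.18 in low and 86.9% ± 2.38 in control. Of 18 steroid genes, 11 were lower, with a median of -0.37 points, or 14 with a median of -0.69 points after centring. PPAR and lipid genes were higher in 15 of 26 with a median of 0.339 points, and 13 of 26 after centring. Acadm and Acadvl, which oxidise fatty acids, overlapped, and no gene of that list separated the groups. Over all gene spans, the low columns were all above control in 5.34% and all below in 4.81%. With shares this small, their absence from a short list says little about the list. In the retinoic acid list 10 of 17 were higher, with a median of 0.258 points that turned to -0.0638 after centring. Rxrg, a retinoid X receptor gene with 3 tiles, had 58.3%, 55.5% and 53.9% in low, and 47.8%, 44.7% and 51.0% in control, while Rxra overlapped, at 35.9% ± 1.45 in low and 37.3% ± 0.573 in control.

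Insulin, growth and appetite genes were lower in 17 of 27, with a median of -0.63 points, or in 20 with a median of -0.95 points after centring. Pdx1, the pancreatic homeobox gene, had 20.8%, 23.2% and 22.7% in low, and 25.0%, 24% and 24.2% in control, and the leptin receptor gene Lepr overlapped, at 8.34% ± 2.13 in low and 12.5% ± 3.11 in control. Genes of the DNA methylation machinery were higher in 12 of 19 with a median of 0.178 points that turned to -0.144 after centring. No gene of the list separated the groups, where 5.34% of all gene spans lay above control and 4.81% below. Tdg, the glycosylase that removes oxidised methylcytosine, was at 33.2% ± 2.53 in low and 31.2% ± 0.902 in control, and Setdb1, a histone methyltransferase gene that silences retroelements, at 23.4% ± 0.633 in low and 21.6% ± 2.31 in control. Clustered protocadherin genes give neurons their surface identity. Of 38, 22 were lower, with a median of -0.081 points, or 31 with a median of -0.403 points after centring. These genes share tiles, so they are not separate measurements. Over the 108 tiles of the list the median difference was 0.516 points, the other way. The list averaged 26.1% ± 1.05 in low and 25.7% ± 0.233 in control (SD, n = 3 each). Pcdhgb7 had 20.5%, 20.3% and 20.6% in low, and 21.2%, 21.9% and 21.9% in control, and Pcdhb2 overlapped.

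Of 65 genes in or beside the features named here, 43 were in the deposited expression table of the same study, which has 2 columns each for low, control and high and gives CPM, reads scaled to a fixed library total, again with no tissue. The tissue link between the 2 tables is unknown, so levels are set side by side without a test. Phlda2 had 73.1 and 128 CPM in the low columns, and 104 and 84.4 CPM in the control columns. Prim1 had 55.0 and 52.2 CPM in low, and 49.9 and 52.7 CPM in control, and Naa16 had 29.8 and 27.9 CPM in low, and 32.4 and 30.6 CPM in control. The low columns of Tfrc lay below those of control, with 129 and 126 CPM in low, and 139 and 149 CPM in control, and Tns1 had 6.93 and 6.43 CPM in low, and 9.28 and 7.93 CPM in control. Hand1 was the reverse, with 42.5 and 49.5 CPM in low, and 35.4 and 28.7 CPM in control. The first high column of Hand1 lay between the control columns, and the second lay above the low columns. Slc35e1 had 59.3 and 58.6 CPM in low, and 57.2 and 57.4 CPM in control. Slc35e1 and Naa16 thus separated as well. So did genes not quoted, among them Gata6 and Susd4 (below control) and Acadm and Otx1 (above control). With 2 columns a group, such separation is easily reached by chance, so these genes are examples and not a selection that stands out.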

How the data were processed

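The deposited methylation table gives percent methylation of 100 bp tiles as made by the authors, and the deposited expression table gives CPM, per the file headers. The submitters' processing notes list the bisulfite tools Bismark and methylKit together with edgeR, SAMtools, TopHat, Bowtie 0.12.2, Bowtie2 and Trim Galore, without saying what each was used for, and the builds mm8 and mm10. How replicates were pooled and which coverage minimum was applied is not given in the sources used here. The build of the tiles was settled from the data. On GRCm38.p6, 43819 tiles within 500 bases of a RefSeq gene start averaged 8.65% methylation, whereas shifted starts gave 2172 to 3295 tiles at 33.9% to 37.1%. Promoter sequences come from RefSeq on that assembly; those of chromosome 18 were not used here, so its tiles at gene starts count with gene spans.

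Columns were mapped to a treatment by name. Tiles, regions (3 or more tiles whose starts lie at most 300 bases apart), gene starts (2 or more tiles) and gene spans with 2 kb flanks (3 or more tiles) were each fitted on percent values with limma 3.58.1 in R 4.3.3, all 9 columns in 1 fit without covariates, contrast low minus control, Benjamini-Hochberg adjustment over all features of a level and a threshold of 0.05. The limma step was tested on simulated data. Library means were compared by exact permutation tests (scipy 1.17.1). Named features are the 8 tiles, 5 regions, 6 gene starts and 6 gene spans of smallest p in each direction, passing over unnamed predicted genes at starts and spans, and the 2 genes of smallest gene span p in each of 13 lists. Of these, 1 higher tile and 1 lower region are not reported here. The comparison, its features and the lists were chosen with earlier results of these data known. Coverage is unknown, so no coverage minimum, interval or count model could be applied, and a percentage may rest on few reads. Alternatives were the scale, the variance trend, the columns in the fit, centring, joining and window settings, the number as a block and leaving out each column.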

Additional observations from a re-analysis of the deposited data

How the results depend on the processing

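None of the 4 levels gave a called feature as reported, and calls appeared in few alternatives. Limma called 1 tile on the logit scale and 1 tile with a variance trend, both times the Naa16 tile. Leaving out 1 column gave between 0 and 1 called tiles, 0 and 1 regions, 0 and 2 gene starts and 0 and 2 gene spans, and all of these calls came without the second control column, at the start of Dcbld2. Deviations of low and control columns with the same number correlated at 0.0286, 0.0163 and 0.00619, and those with different numbers at between -0.0311 and 0.0149. Values this small cannot show whether the column numbers pair the samples. With the number as a replicate block 0 tiles, 0 regions, 0 gene starts and 0 gene spans were called, with 8194 tiles at an unadjusted p under 0.05. The difference of overall means was reversed when each column was summarised by its median tile, at -0.374 points. The first control column had the highest of these medians. When 1 column was left out, the difference of means ran from 0.114 to 0.525 points. In the same way the class under 5% ran from -0.114 to 0.0436 points and the class from 20% to 60% from -0.0298 to 0.462 points, so both changed sign. Chromosome X was reversed to 0.35 points without the first and 0.00915 points without the second low column, to 0.527 points without the second control column and to 0.321 points with 1 value per region; its lowest value, without the first control column, was -0.964 points. Tiles higher by 10 points or more, 2598 in all, numbered 3036 to 4341 and lower ones, 1414 in all, 1901 to 2605 when 1 column was left out, an alternative chosen after seeing the data; a mean of fewer columns varies more. The named tiles, regions, gene starts and gene spans kept their direction in the 11 alternatives fitted to them, which their choice by small p made nearly certain. Their low and control columns do not overlap, so leaving out 1 column cannot reverse them. None but the Naa16 tile changed its side of the threshold. Unknown coverage limits what single tiles can show.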

Other observations

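The start of Dcbld2, which encodes a transmembrane protein resembling a receptor, was singled out after its values were seen. Its tile at chr16:58408501-58408600 had 11.8%, 8.62% and 12.1% in the low columns and 9.03%, 10.3% and 9.18% in the high columns, against 47.6%, 10.7% and 46.2% in the control columns. So control columns 1 and 3 stood apart from the other 7 columns at this tile. The 3 neighbouring tiles of the same start did not show it, with values from 3.28% to 10.4% in low and from 0% to 10.6% in control. Averaged over its 4 tiles, the start had 8.68%, 7.57% and 7.74% in low, and 16.7%, 7.63% and 16.7% in control, and limma called it only without the second control column (adjusted p = 0.00331).

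The distal imprinted cluster of chromosome 7, from Ascl2 to Nap1l4 (chr7:142966822-143549882), was looked at as a whole after Phlda2, Tssc4 and Trpm5 had been named. Among its 94 tiles the low columns were all above control in 2 (2.13%) and all below in 6 (6.38%), with a median difference of -0.078 points. Over all tiles these shares were 5.26% and 4.27%. Of its 12 tested gene spans 3 were above control without overlap, Tssc4, Trpm5 and the predicted gene Gm33663, and none was below. Over all gene spans 5.34% were above and 4.81% below. Tssc4 had 15.7%, 13.7% and 16.3% in low, and 9.56%, 11.9% and 11% in control, and its 6 tiles include the 3 of Trpm5. Ascl2, a trophoblast regulator, was at 14.9% ± 0.766 in low and 13.1% ± 2.54 in control, and Cdkn1c, a growth-restraining cell cycle inhibitor gene, at 24.5% ± 1.81 in low and 24.2% ± 1.08 in control (SD, n = 3 each). The cell-surface gene Cd81 was at 17.8% ± 1.57 in low and 17.1% ± 0.601 in control, and Slc22a18 at 33.6% ± 2.66 in low and 36.9% ± 3.28 in control.

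Among tiles whose groups did not overlap, the widest mean difference was at chr4:90537701-90537800, outside genes. There the low columns had 77.1%, 63.6% and 47.8%, and the control columns had 27%, 36.4% and 25.9%, a difference of 33.1 points. In the other direction, the widest was at chr13:100588901-100589000, with 47.1%, 20.7% and 57.9% in low, and 83.2%, 62.8% and 68.3% in control, a difference of -29.5 points. At both tiles the low columns were far apart. Neither tile is among the 16 of smallest p.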
